A study of Mus musculus with 16 samples.

Results

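The genes described are the ubiquitin ligase and deubiquitinase genes of mouse: every gene of the expression tables whose symbol begins with Ube, Usp, Trim, Rnf, Fbxo, Fbxl, Fbxw, Herc, Ubr or Cul and goes on with a family code. There were 39 of them among 2247 genes over both tables. Of these, 38 were among the 1556 genes of a table of newly made RNA in cultured erythroblasts, and 1, Fbxo10, was among the 793 genes of a table of fetal liver RNA. None was in both, although 102 genes were, and no Fbxw or Herc gene was listed in either.

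The study followed KLF1, the zinc finger factor that drives red cell gene expression, and its Nan form, which carries a single amino acid change in the DNA-binding domain and causes anaemia in mice. The cultured cells were K1 erythroblasts, a line that lacks KLF1: K1-ER cells carried a KLF1-ER transgene (clones A and C), K1-NanER cells a Nan-KLF1-ER transgene (clones B and X), and parental K1 cells no transgene, so the control and both transgenic lines all lacked endogenous KLF1. The ER part makes the fusion protein act on addition of 4-hydroxytamoxifen, given at 200 nM to all 3 lines, and new RNA was labelled with 500 μM 4-thiouridine (4sU) for 1 h in 2 samples per line. Whole livers of Nan/+ and +/+ fetuses at embryonic day 14.5 gave 3 samples per genotype, and binding was mapped by chromatin immunoprecipitation with a KLF1 antibody in K1-ER and K1-NanER cells after 3 h of 4-hydroxytamoxifen, in 1 library per factor from 3 pooled replicates, with input DNA. The labels do not say that same-line samples of K1 came from separate cultures, nor livers from separate litters, so the q values may measure technical spread, and each transgenic line is a pair of clones.

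Ubiquitin is passed from an activating enzyme to an E2 conjugating enzyme and then, with the help of an E3 ligase, to a target protein, which is often degraded by the proteasome; deubiquitinases remove it again. Ligases come as HECT, RING, U-box or TRIM proteins, or as cullin complexes in which an F-box or other adaptor protein picks the target. Maturing red cells use this system to clear organelles and most proteins other than haemoglobin.

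Each table holds 1 value per group, in FPKM (fragments per kilobase of transcript scaled to the number of mapped fragments), with the authors' own log2 fold changes and q values, so no spread between samples can be given and no test was added. A gene is said to have risen or fallen where the authors' q in their deposited table was at most 0.05. Every one of the 1556 genes of the new-RNA table passed in at least 1 line, and every gene of the liver table passed, so genes that did not pass have no row and the share of called genes is high for any group of genes. Read depth per sample is unknown. Klf1 itself has no row in the new-RNA table. Esr1, whose hormone-binding part is in the fusion, was at 2.41 FPKM in K1 cells, 136 in K1-ER cells and 70.3 in K1-NanER cells. Of 8 erythroid markers 4 were listed in the new-RNA table. Their summed level was 156 FPKM in K1 cells, 612 in K1-ER cells and 278 in K1-NanER cells. Epor was the largest part of each sum, with 129, 485 and 139 FPKM in the same order of lines. Alas2 (5.81, 25.6 and 26.0 FPKM) and Tfrc (21.1, 93.7 and 112 FPKM) were not lower with the Nan form than with KLF1-ER. The remaining listed marker, the smallest part of each sum, was lower with the Nan form, as was Epor. The lower sum of the K1-NanER line thus does not hold for each marker. The part of these differences in the results below was not tested.

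Of the 38 ubiquitin-system genes, 15 rose and 3 fell in K1-ER against K1, and 21 rose and 8 fell in K1-NanER. Over all genes of the table, 37.9% rose and 11.5% fell in K1-ER, and 47.4% rose and 28.3% fell in K1-NanER. The shares among the ubiquitin-system genes were 39.5% and 7.89% in K1-ER and 55.3% and 21.1% in K1-NanER, near those of the table. Their median log2 fold change in the authors' deposited table was 0.80 in K1-ER, where the whole table had 0.72, and 1.10 in K1-NanER, where it had 1.04. Both comparisons used the same K1 samples. None of the 38 genes rose in one line and fell in the other, and only 1 of the 1556 genes of the table did. Of the 38 genes, 7 rose in both lines, 2 fell in both, 8 rose in K1-ER without passing in K1-NanER, 14 rose in K1-NanER without passing in K1-ER, 6 fell in K1-NanER without passing in K1-ER, and Rnf43 fell in K1-ER without passing in K1-NanER. Over the 1556 genes of the table the counts of these classes, in the same order, were 289, 100, 299, 448, 340 and 79. The difference between the K1-ER and K1-NanER lines was itself not tested in the deposited tables.

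**Figure D1:**
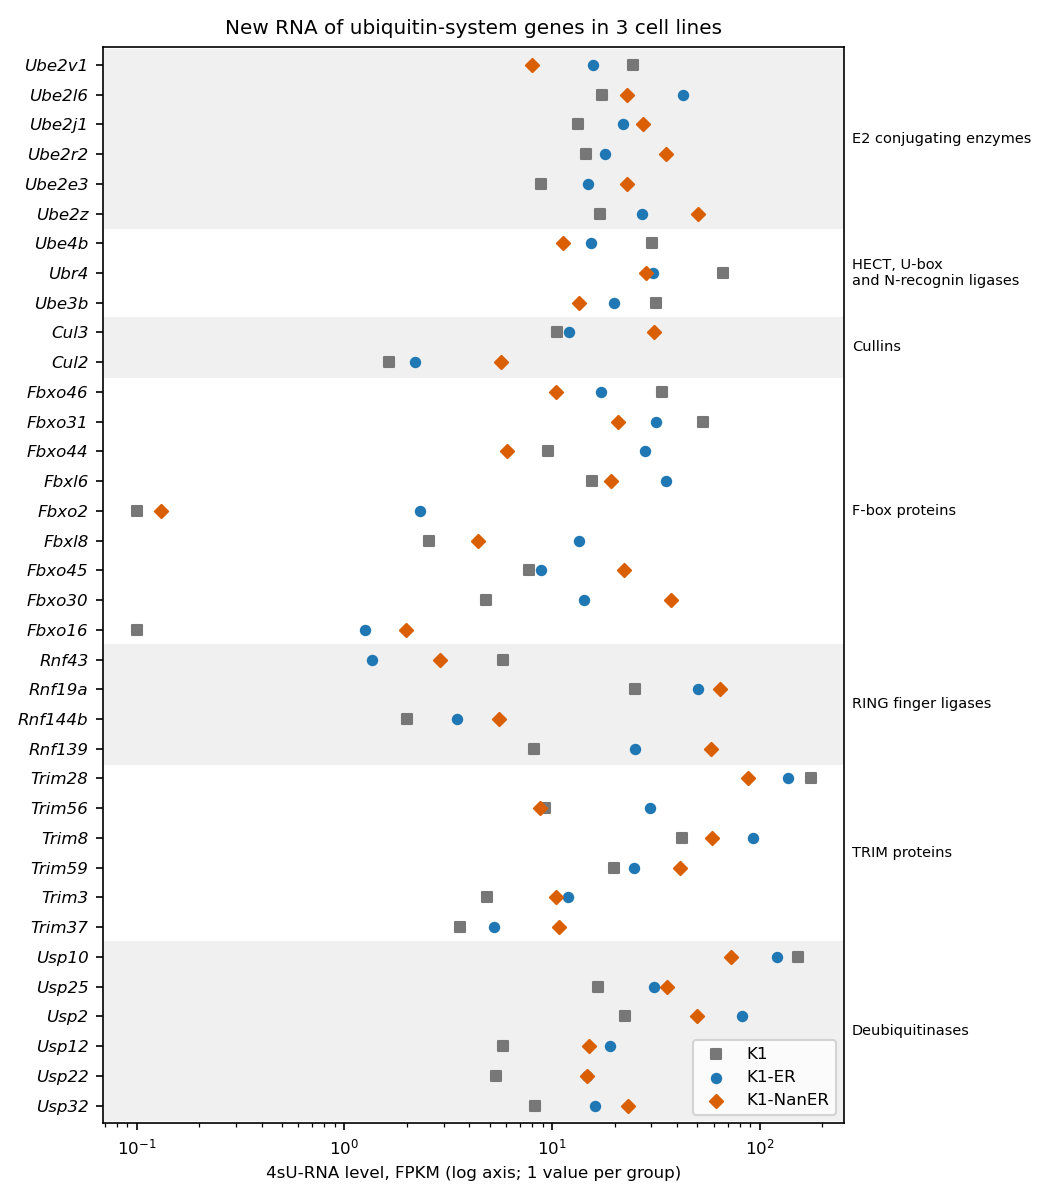
Level of new RNA (FPKM, log axis) of 36 of the 38 ubiquitin-system genes in K1 (squares), K1-ER (circles) and K1-NanER (diamonds), 1 value per group, ordered by role. The 3 HECT, U-box and N-recognin ligases lie highest in K1, while most F-box, RING and deubiquitinase genes lie lowest there.

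The promoters of Usp12, Usp32, Ube2l6 and Cul3 are shown first as examples of genes with an annotated promoter peak: of KLF1 at Usp12, Usp32 and Ube2l6, and of Nan-KLF1 at Cul3. At Ube2l6 a Nan-KLF1 peak annotated as intron overlapped the KLF1 peak. They are RefSeq windows of 300 bases on GRCm38.p6, from 250 bases before to 50 after the annotated start, written 5′ to 3′ on the gene's strand. Capitals mark every match, on either strand, to CCACACCC, CCACGCCC, CCACTCCC, CCCCACCC, CCCCGCCC or CCCCTCCC, the 6 central motifs of the authors' peak lists that have C at position 4, counted from the left. Overlapping matches run together in the capitals.
Usp12 (chr5:146794907-146795206, minus strand): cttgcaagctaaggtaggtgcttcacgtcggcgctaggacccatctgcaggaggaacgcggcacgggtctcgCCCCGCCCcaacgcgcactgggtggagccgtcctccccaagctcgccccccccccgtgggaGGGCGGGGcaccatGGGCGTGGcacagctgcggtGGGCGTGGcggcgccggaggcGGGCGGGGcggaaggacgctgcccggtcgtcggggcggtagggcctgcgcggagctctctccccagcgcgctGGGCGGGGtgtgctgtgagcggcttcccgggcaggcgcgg
Usp32 (chr11:85139906-85140205, minus strand): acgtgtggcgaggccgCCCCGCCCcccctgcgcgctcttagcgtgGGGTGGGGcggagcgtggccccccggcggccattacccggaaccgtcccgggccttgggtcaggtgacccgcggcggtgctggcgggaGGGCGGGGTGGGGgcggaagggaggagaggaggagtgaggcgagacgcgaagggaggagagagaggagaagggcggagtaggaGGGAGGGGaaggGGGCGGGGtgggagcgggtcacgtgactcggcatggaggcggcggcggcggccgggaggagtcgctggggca
Ube2l6 (chr2:84798578-84798877, plus strand): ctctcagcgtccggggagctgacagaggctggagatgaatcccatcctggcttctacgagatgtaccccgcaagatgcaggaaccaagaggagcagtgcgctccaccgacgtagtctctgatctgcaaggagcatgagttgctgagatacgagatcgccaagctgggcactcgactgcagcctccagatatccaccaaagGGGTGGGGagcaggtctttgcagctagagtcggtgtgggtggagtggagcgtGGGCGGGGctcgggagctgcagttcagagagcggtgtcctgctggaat
Cul3 (chr1:80340641-80340940, minus strand): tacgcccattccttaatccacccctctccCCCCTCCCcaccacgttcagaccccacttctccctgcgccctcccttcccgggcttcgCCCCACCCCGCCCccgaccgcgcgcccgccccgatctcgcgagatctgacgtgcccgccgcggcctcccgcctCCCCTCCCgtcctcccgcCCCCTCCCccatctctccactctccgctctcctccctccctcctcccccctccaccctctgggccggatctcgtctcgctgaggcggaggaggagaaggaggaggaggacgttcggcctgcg
The Usp12 and Usp32 windows held 6 matches each, Cul3 held 5, all on the gene's own strand, and Ube2l6 held 2, both on the other strand. Of the 7 ubiquitin-system genes that had both a window and a motif given for their promoter peak, 6 held that motif in the window: these 4, Fbxo31 and Fbxo44. The window of Usp25 held none of the 6 motifs, and the authors gave CCCCGCCC for its promoter peak. The summit of that peak lay 548 bases upstream of the 5′ edge, and that of the Cul3 peak 571 bases, while a window starts 250 bases before the annotated start. Of the 26 ubiquitin-system genes with a window, 19 (73.1%) held at least 1 match, with a median of 2, against 12386 of 32851 windows of all genes (37.7%), with a median of 0. The 26 genes are in the expression tables because they passed there, while the 32851 windows were not limited to such genes. The 2 shares are thus from unlike sets and do not show a trait of ubiquitin-system genes. A match is only a description of the letters in the window.

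A KLF1 peak named all 6 deubiquitinases of the name rule listed in new RNA. Such a peak also named 45.8% of all genes listed there, and 2 of the 3 listed deubiquitinases outside the rule. The 6 are only genes that passed in at least 1 line, so a trait of deubiquitinases is not shown. Of these 6, 3 rose in K1-ER, and 5 rose and 1 fell in K1-NanER. Usp12, which works with WD-repeat partner proteins, was at 5.81 FPKM in K1 cells, 18.9 in K1-ER cells and 15.0 in K1-NanER cells, so 3.25-fold and 2.58-fold above K1. The KLF1 peak upstream of it had its summit 226 bases before the gene's 5′ edge and a fold enrichment of 286, the peak's own value in the authors' list. Usp2, a deubiquitinase linked to the circadian clock, rose from 22.5 FPKM in K1 to 81.8 in K1-ER cells and 50.1 in K1-NanER cells, 3.64-fold and 2.23-fold. Its level was higher in K1-ER than in K1-NanER, and its KLF1 peak (fold enrichment 69.6), annotated as promoter, lay inside the listed locus, 10871 bases from the nearest edge. Usp22, the deubiquitinase of the SAGA histone-modifying complex, had nearly the same level in both lines: 5.36 FPKM in K1 cells, 14.8 in K1-ER cells and 14.7 in K1-NanER cells. It carried a KLF1 peak at its promoter, 53 bases from the locus edge (fold enrichment 95.4, CCCCGCCC), and a Nan-KLF1 peak at another place, 9468 bases from the edge (256, CCCTGCCC).

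Usp32 and Usp25 rose in K1-NanER and missed the threshold in K1-ER. Usp32, a large membrane-associated deubiquitinase, was at 8.25 FPKM in K1 cells, 16.1 in K1-ER cells and 23.1 in K1-NanER cells, with a q of 0.052 for K1-ER by the authors' deposited table. Its KLF1 peak (fold enrichment 314, CCCCTCCC) had the summit 41 bases upstream of the 5′ edge. Usp25 was at 16.6, 30.9 and 35.7 FPKM, with a q of 0.072 for K1-ER by the authors' deposited table, and had 3 KLF1 peaks, of fold enrichment 131 at the promoter and 183 and 333 in introns. Usp10, by far the most abundant of these genes in K1, had lower levels in both transgenic lines: 153 FPKM in K1 cells, 122 in K1-ER cells and 72.9 in K1-NanER cells, where it fell 2.10-fold. Its promoter peak for KLF1 (fold enrichment 107) had no central motif.

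Among the 6 E2 enzymes 1 rose in K1-ER, and 4 rose and 1 fell in K1-NanER. Ube2l6, the E2 that conjugates the ubiquitin-like protein ISG15, was the one that rose in K1-ER, from 17.4 FPKM in K1 to 42.8, with 22.9 in K1-NanER. Ube2z rose in K1-NanER from 17.0 to 50.5 FPKM, with 27.2 in K1-ER. Ube2r2, an E2 of cullin ligases, rose there from 14.6 to 35.5 FPKM, with 18.04 in K1-ER. Ube2e3 and Ube2j1, an E2 of the endoplasmic reticulum, also rose in K1-NanER, 2.59-fold and 2.05-fold. Ube2v1, a catalytically inactive E2 variant that helps to build ubiquitin chains, fell in K1-NanER: 24.5 FPKM in K1 cells, 15.7 in K1-ER cells and 7.97 in K1-NanER cells. Of these 5 genes that moved in K1-NanER 4 went up, and in all 5 the K1-ER level lay between those of K1 and K1-NanER. Ube2z had a Nan-KLF1 peak in an intron, 605 bases inside the 5′ edge (fold enrichment 283, CCCCGCCC), and no KLF1 peak.

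All 3 HECT, U-box and N-recognin genes of the name rule fell in K1-NanER, and Ube4b also fell in K1-ER. Ube4b, a U-box ligase, was at 30.4 FPKM in K1 cells, 15.4 in K1-ER cells and 11.3 in K1-NanER cells. Ubr4, an N-recognin that binds destabilising protein ends, was at 66.5, 30.6 and 28.2 FPKM and fell in K1-NanER. In K1-ER its drop was of like size, 2.17-fold, with q = 0.057 in the authors' deposited table. Ube3b, a HECT ligase, was at 31.6, 19.8 and 13.4 FPKM and fell in K1-NanER. K1 was highest for all 3 genes, and neither binding list named any of them. A KLF1 peak of fold enrichment 275 with CCACACCC, which the list assigned to the promoter of the adjacent gene Kctd10, overlapped the start of the Ube3b locus.

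Both cullins rose in K1-NanER and did not pass in K1-ER. Cul3, the scaffold that works with BTB-domain adaptors, was at 10.5 FPKM in K1 cells, 12.1 in K1-ER cells and 31.1 in K1-NanER cells. Cul2, the scaffold of the von Hippel-Lindau ligase complex, was at 1.63, 2.20 and 5.65 FPKM. For both, K1-ER stood close to K1 and K1-NanER about as far above it, 2.95-fold for Cul3 and 3.46-fold for Cul2. At Cul3 the Nan-KLF1 peak lay 571 bases upstream of the 5′ edge (fold enrichment 134, CCCCGCCC), and no KLF1 peak was assigned to the gene. Cul2 had no peak of either factor.

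The 10 F-box genes were the most varied group: 6 rose and 1 fell in K1-ER, and 4 rose and 2 fell in K1-NanER. Fbxo30 had no peak of either factor and rose further in K1-NanER than any other ubiquitin-system gene with more than 0.1 FPKM in K1: 4.80 FPKM in K1 cells, 14.2 in K1-ER cells and 37.6 in K1-NanER cells, or 2.96-fold and 7.82-fold.

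Another 4 F-box genes rose in K1-ER and had a lower level in K1-NanER, where none passed. Fbxl8 was at 2.55 FPKM in K1 cells, 13.5 in K1-ER cells and 4.40 in K1-NanER cells. Fbxo2, whose protein binds sugar chains of glycoproteins, was listed at 0.1 FPKM in K1, the lowest value the table gives, at 2.31 in K1-ER and at 0.131 in K1-NanER. Fbxo44 lies 603 bases from Fbxo2 on chromosome 4, was at 9.59, 28.1 and 6.08 FPKM, and was 4.63-fold higher in K1-ER than in K1-NanER. Fbxl6 was at 15.6, 35.5 and 19.2 FPKM. In each of these 4 genes K1-NanER was nearer to K1 than K1-ER was. For Fbxo44 the change in K1-NanER, which did not pass, had the opposite sign in the authors' deposited table: its log2 fold changes there were 1.55 for K1-ER but -0.66 for K1-NanER.

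The opposite order was seen in Fbxo45, at 7.76 FPKM in K1 cells, 8.81 in K1-ER cells and 22.2 in K1-NanER cells. Fbxo16 was listed at 0.1 FPKM in K1 cells, 1.25 in K1-ER cells and 1.97 in K1-NanER cells, where it rose. Its K1-ER level also lay above that of K1 but did not pass, so a rise particular to K1-NanER is not shown. Fbxo46 fell in both lines (33.9, 17.1 and 10.4 FPKM), and Fbxo31, an F-box protein linked to turnover of D-type cyclins, fell in K1-NanER (53.3, 31.8 and 20.7 FPKM). Fbxo46 and Fbxo31 had the highest K1 levels of the 10 F-box genes.

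Of 5 RING finger ligases, 2 rose and 1 fell in K1-ER and 4 rose in K1-NanER. Rnf139, a ligase of the endoplasmic reticulum membrane, rose in both lines, from 8.16 FPKM in K1 to 25.1 in K1-ER cells and 58.2 in K1-NanER cells, 3.07-fold and 7.13-fold. Rnf19a, a RING-between-RING ligase, rose in both, from 25.2 to 50.5 and 64.4 FPKM, and had a KLF1 peak at its promoter (fold enrichment 444, no motif). Rnf43, a membrane ligase that removes Wnt receptors from the cell surface, had the largest fall: 5.79 FPKM in K1 cells, 1.36 in K1-ER cells and 2.87 in K1-NanER cells, or 4.27-fold lower in K1-ER. Its K1-NanER value also lay below K1 but had q = 0.169 in the authors' deposited table. Rnf144b rose in K1-NanER, 2.75-fold.

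Of 6 TRIM genes, 3 rose in K1-ER, and 2 rose and 1 fell in K1-NanER. Trim56, a TRIM ligase of innate antiviral defence, was at 9.28 FPKM in K1 cells, 29.7 in K1-ER cells and 8.75 in K1-NanER cells, so its level in K1-NanER was close to that in K1. Trim8 rose in K1-ER from 42.3 to 92.9 FPKM, with 58.6 in K1-NanER. Trim3 rose in K1-ER from 4.85 to 11.9 FPKM, and its 10.4 FPKM in K1-NanER did not pass, with q = 0.104 in the authors' deposited table. Trim37, a ligase that limits centrosome assembly, rose in K1-NanER (3.601, 5.23 and 10.7 FPKM), as did Trim59 (19.9, 24.9 and 41.1 FPKM). Trim28, the corepressor of KRAB zinc finger proteins, was the most abundant ubiquitin-system gene in K1 and fell in K1-NanER, from 176 to 87.6 FPKM, with 136 in K1-ER.

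**Figure D2:**
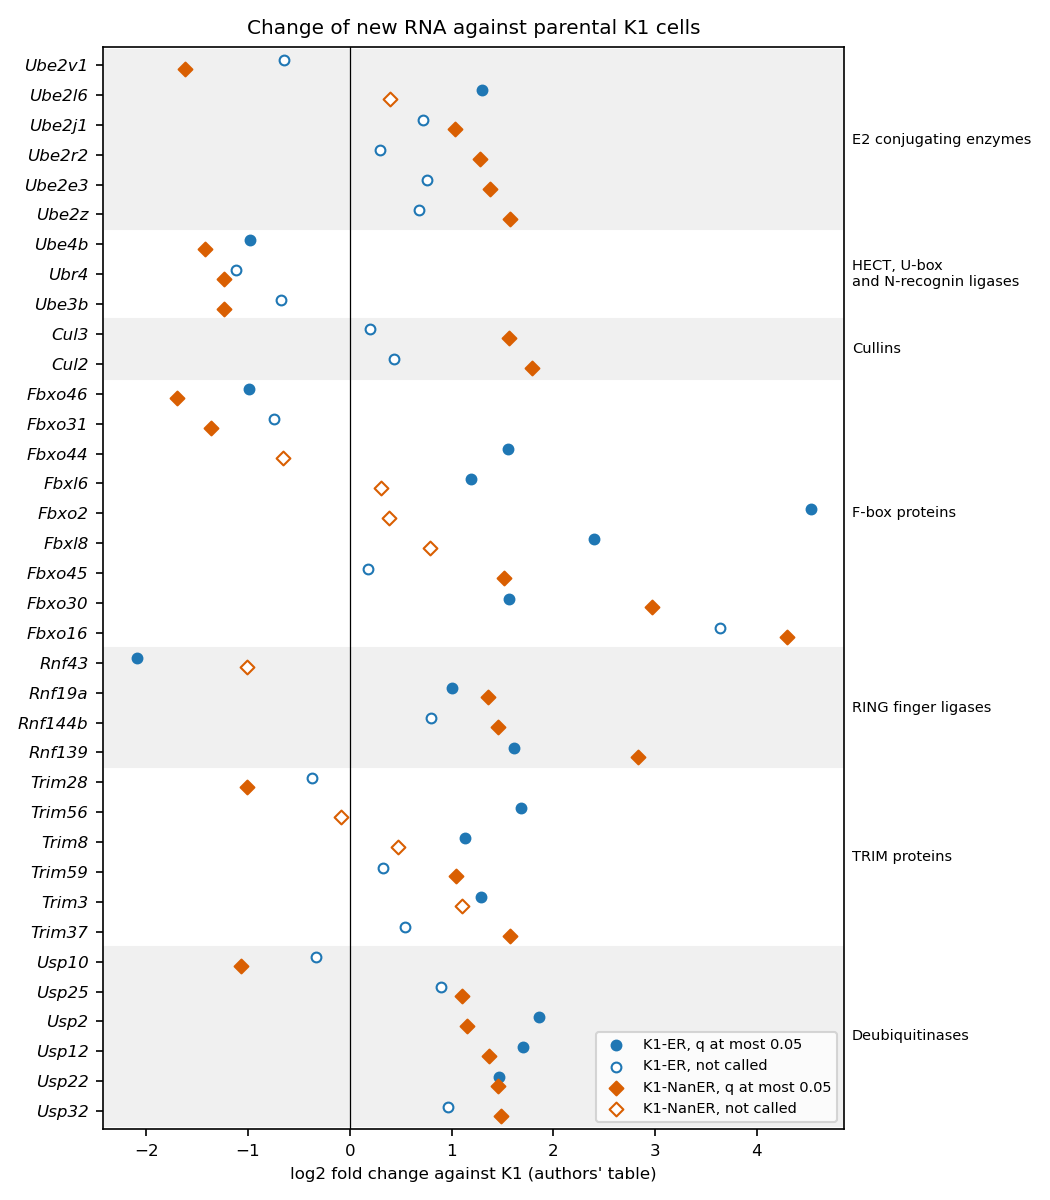
Log2 fold change against K1 from the authors' deposited table for 36 of the 38 ubiquitin-system genes, in K1-ER (circles) and K1-NanER (diamonds), where filled symbols passed at q of at most 0.05. Both symbols lie on the same side of 0 for all genes drawn other than Fbxo44 and Trim56, whose K1-NanER values were not called.

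The genes that rose in K1-ER without passing in K1-NanER had short loci, with a median of 6.51 kb between the listed start and end, while the 14 that rose in K1-NanER without passing in K1-ER had a median of 54.1 kb. The same order held in the whole table, with medians of 12.0 kb over 299 genes and 34.3 kb over 448 genes. The ubiquitin-system genes as a whole had a median of 28986 bases, above the 17815 bases of the table. Loci of the 7 genes that rose in both lines had a median of 28.6 kb, which lies between the 2 other groups.

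The genes that fell in K1-NanER had high levels in parental K1 cells. The 8 that fell had 24.5 to 176 FPKM in K1 (median 43.6), and the 21 that rose had 0.1 to 25.2 FPKM (median 8.16). In the whole table the corresponding medians were 46.1 and 6.30 FPKM. Of the 17 ubiquitin-system genes above the table's median K1 level of 13.4 FPKM, 6 rose and 8 fell in K1-NanER. Of the 21 at or under it, 15 rose and 0 fell. In the table, 24.3% rose and 51.8% fell above the median, and 70.4% rose and 4.88% fell at or under it. The K1 value enters both axes of this comparison, and the table keeps only genes that passed, so a description is all it allows.

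**Figure D3:**
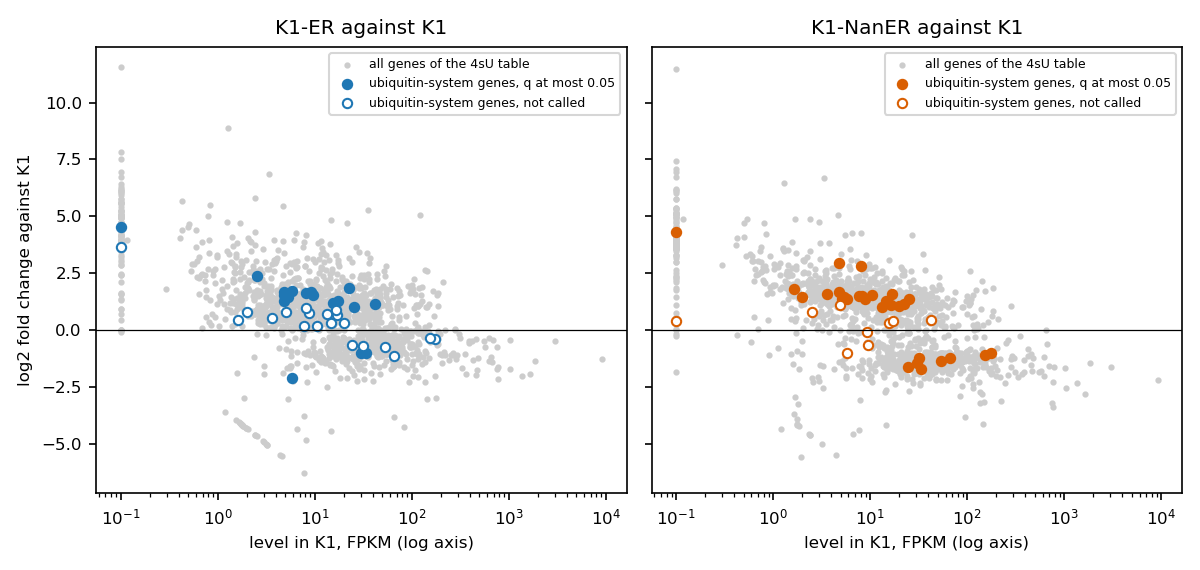
Log2 fold change against the level in K1 (FPKM, log axis) for K1-ER (left) and K1-NanER (right), with all 1556 genes of the table in grey and the 38 ubiquitin-system genes in colour, filled where they passed. In K1-NanER the 8 genes that fell all lie at 24.5 FPKM or above in K1.

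KLF1 peaks were assigned by the authors to their nearest gene. Such a peak named 21 of the 38 ubiquitin-system genes in the new-RNA table, against 45.8% of all genes of the table, and a Nan-KLF1 peak named 9, against 26.5%. Split by the change in K1-ER, a KLF1 peak named 13 of the 15 genes that rose (86.7%), where the table had 71.1%. It named 0 of the 3 that fell, where the table had 17.9%, and 8 of the 20 that were not called (40.0%), where the table had 33.2%. The 2 risers without a KLF1 peak were Fbxl6 and Fbxo30. With peaks assigned by position in place of the gene named, the count among risers stayed at 13 of 15. The share of the table's risers was then higher, at 76.6% (451 of 589). Of the 8 genes that rose in K1-ER without passing in K1-NanER, 7 had a KLF1 peak (87.5%) and 3 a Nan-KLF1 peak (37.5%). Over the 299 such genes of the table the shares were 72.2% and 40.1%. Of the 14 that rose in K1-NanER without passing in K1-ER, 6 had a KLF1 peak (42.9%) and 3 (Cul3, Trim59 and Ube2z) a Nan-KLF1 peak (21.4%). Over the 448 such genes of the table the shares were 39.7% and 22.8%, so the whole table had the same order.

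**Figure D4:**
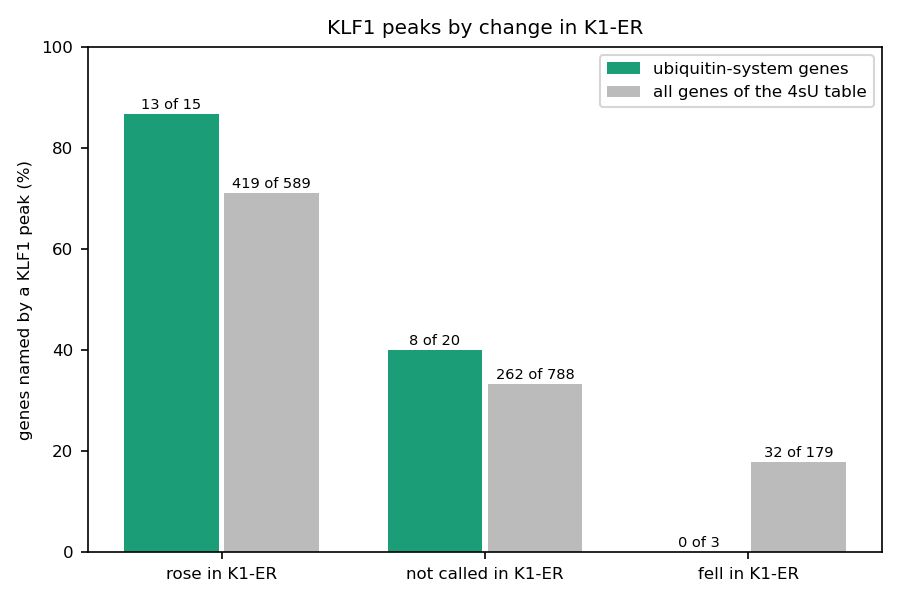
Share of genes (%, bars from 0) that a KLF1 peak names as nearest gene, by the call in K1-ER, for ubiquitin-system genes (green) and all genes of the new-RNA table (grey), with counts above the bars. The shares for genes that rose are 86.7% and 71.1%.

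In all, 34 KLF1 peaks named 22 ubiquitin-system genes, Fbxo10 included, and 16 of them (47.1%) were annotated as promoter, against 29.4% of the 5326 peaks of the list. Their median fold enrichment was 93.5, with 75.6 for the whole list. These 34 peaks are at genes that passed in an expression table, while the whole list is not limited in that way. All 120 KLF1 peaks naming a gene of the name rule, with or without a row, were 35.8% promoter, with a median fold enrichment of 70.9. Of the 16 promoter peaks, 14 had their summit within 300 bases of an edge of the locus. A central motif was given for 25 of the 34, and in 22 of these (88.0%) the base at position 4 was C, against 80.2% in the whole list. Nan-KLF1 had 11 peaks at 9 of the genes, 4 at promoters, with a median fold enrichment of 117 (107 in the whole list). A motif was given for 8 of them, with C at position 4 in 5 (62.5%), against 50.3% of all Nan-KLF1 peaks with a motif. The counts are small and each factor had 1 library, so no replicate check of a peak is possible.

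Other promoter peaks of KLF1 were at Fbxl8 (fold enrichment 233, no motif), Trim3 (138, CCACGCCC), Fbxo31 (109, CCACACCC), Trim37 (91.5, no motif), Fbxo44 (54.0, CCCCACCC), Ube2l6 (41.9, CCCCGCCC) and Trim56 (40.1, no motif). The genes of these 7 peaks differed in their response: Fbxl8, Trim3, Fbxo44, Ube2l6 and Trim56 rose in K1-ER, Trim37 rose in K1-NanER, and Fbxo31 fell in K1-NanER. Nan-KLF1 promoter peaks included those at Cul3, Fbxl8 (fold enrichment 107) and Trim59 (97.5, 370 bases upstream of the 5′ edge).

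Peaks of both factors overlapped, with at least 1 shared base, at 4 genes, among them Fbxl8, Trim8 and Ube2l6. At Fbxl8 the summits were 57 bases apart. At Ube2l6 they were 171 bases apart, with CCCCGCCC under KLF1 and CCCTGCCC under Nan-KLF1, and fold enrichments of 41.9 and 82.3. At Trim8 both peaks lay in an intron with summits 403 bases apart, CCCCTCCC under KLF1 and CCCCACCC under Nan-KLF1, and fold enrichments of 104 and 156. With 1 library per factor, fold enrichments of the 2 lists cannot be compared. Fbxl8, Trim8 and Ube2l6 all rose in K1-ER and did not pass in K1-NanER. Of the 713 genes of the table named by a KLF1 peak, 419 rose in K1-ER. Overlaps were not counted over all genes, so no share of the table stands beside these 4 genes.

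Some of these genes share their region with another gene that moved. Tradd, 53 bases from Fbxl8, rose in both lines, with 8.58 FPKM in K1 cells, 38.1 in K1-ER cells and 25.0 in K1-NanER cells. Arfip2, 701 bases from Trim3, and Smc4, 670 bases from Trim59, both rose in K1-ER. A peak between such neighbours is assigned to 1 gene by distance. Fbxo44 and Fbxo2, 603 bases apart, both rose in K1-ER without passing in K1-NanER. The KLF1 promoter peak assigned to Fbxo44 also overlapped the start of the Fbxo2 locus. The KLF1 peaks that named Fbxo2 lay 22132 and 27932 bases from its locus.

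In fetal liver Fbxo10, an F-box adaptor, fell. It was at 5.67 FPKM in +/+ livers and 2.74 in Nan/+ livers, 2.07-fold lower, with a log2 fold change of -1.05 and q = 0.026 in the authors' deposited table, in which 24.6% of the 793 genes fell and 75.4% rose. Its locus is chr4:45047120-45097476 on mm9. A KLF1 peak (fold enrichment 91.5, CCACTCCC) had its summit 2496 bases upstream of the 5′ edge, and no Nan-KLF1 peak was assigned to it. Polr1e, 555 bases away, fell in K1-NanER in new RNA (20.9 FPKM in K1 cells, 10.2 in K1-ER cells and 9.22 in K1-NanER cells). In whole liver, fewer cells of a type and less RNA per cell cannot be told apart. All 6 granulocyte markers rose in Nan/+ livers, with a summed level of 403 FPKM in +/+ and 2384 in Nan/+, all 6 muscle markers fell from a sum of 43.5 to 1.75 FPKM, and the female-specific RNA Xist fell from 25.1 to 0.04 FPKM. No erythroid, hepatocyte or endothelial marker was listed. The part of these shifts in the Fbxo10 value was not tested.

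Other genes of the ubiquitin and autophagy systems were taken from 9 lists of 427 genes outside the name rule. In new RNA 44 were listed, of which 16 rose and 4 fell in K1-ER and 24 rose and 11 fell in K1-NanER. Over the whole table, 37.9% rose and 11.5% fell in K1-ER, and 47.4% rose and 28.3% fell in K1-NanER, against which the counts of each list are to be read. Of 9 cullin adaptors and receptors, 4 rose and 1 fell in K1-ER and 5 rose and 1 fell in K1-NanER. Skp2, the F-box protein that degrades cell cycle inhibitors and whose symbol lies outside the rule, fell in both lines, from 47.1 FPKM in K1 to 12.6 in K1-ER cells and 13.2 in K1-NanER cells. Socs7, of the suppressor of cytokine signalling family, rose in both (8.31, 24.0 and 29.6 FPKM in K1, K1-ER and K1-NanER, the order used from here on). Cish, of the same family, rose in K1-ER (listed at 0.1, then 1.83 and 0.429 FPKM). Among E1 and ubiquitin-like enzymes all 3 listed rose in K1-NanER. Pias3, a SUMO ligase (3.06, 24.3 and 44.2 FPKM), which rose in K1-ER too, was the one with the largest change.

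Of 14 other ligases, 4 rose and 1 fell in K1-ER and 9 rose and 4 fell in K1-NanER. Traf4, a signalling adaptor with a RING finger, rose in both lines (6.08, 49.0 and 27.1 FPKM), as did the membrane ligase March9 (listed at 0.1, then 2.20 and 2.16 FPKM). Mid1 fell in both (68.3, 25.9 and 25.4 FPKM), and Mib2, a ligase of Notch ligands, fell in K1-NanER (7.45, 5.74 and 1.98 FPKM). Among 3 other deubiquitinases Josd2 rose in K1-ER and its K1-NanER value did not pass (43.9, 132 and 26.7 FPKM). Tnfaip3, an inhibitor of inflammatory signalling, rose in K1-NanER (0.699, 0.740 and 3.83 FPKM).

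Of 5 genes of the proteasome list, which is not limited to subunits, 2 (Nfe2l1 and Psmg3) rose and 1 fell in K1-ER. In K1-NanER 1 rose and 2 fell. Nfe2l1, the factor that drives proteasome gene expression, rose in K1-ER (33.7, 99.3 and 56.5 FPKM), and Psmc6, an ATPase subunit, rose in K1-NanER (8.42, 10.8 and 25.5 FPKM). Adrm1, a ubiquitin receptor of the proteasome, fell in both lines (132, 57.6 and 27.6 FPKM), and the core subunit Psma7 fell in K1-NanER (71.3, 33.0 and 29.7 FPKM). Genes of the proteasome list thus moved in both directions in new RNA.

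Of 6 autophagy genes 2 rose in K1-ER, and 3 rose and 1 fell in K1-NanER. Bnip3l, the receptor through which red cells clear mitochondria, rose in K1-NanER (6.84, 10.4 and 15.9 FPKM), as did Atg12, an ubiquitin-like protein of autophagosome formation (4.57, 4.08 and 12.6 FPKM). Atg4d rose in K1-ER (32.0, 99.0 and 18.03 FPKM), and Gabarapl1 fell in K1-NanER (79.5, 45.3 and 32.7 FPKM). Ubxn7 rose and Ubxn6 fell in both lines, and Anapc7, the 1 subunit of the anaphase-promoting complex listed, fell in K1-NanER from 39.6 to 18.4 FPKM.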

How the data were processed

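The 16 mouse samples were grouped by their labels. Per the submitters' processing notes, reads were handled with TopHat2 2.0.10 and MACS 1.4.2 on mm9; the program behind the expression tests and the peak annotation step were not given in the sources used. The authors deposited FPKM levels, 1 per group, with log2 fold changes, p-values and q values, the lowest level of the new-RNA table being 0.1 FPKM. Their deposited peak lists give a fold enrichment (a ratio), a rank (a score), a location, a nearest gene and a central motif per peak. Locus starts are printed 1 base higher than in the table. No values per sample were analysed here, so no interval, test or standard deviation was computed.

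Members were found by symbol with python 3.11.15 and pandas 2.3.3, counted by the authors' q, set beside all genes of the table, and joined to peaks by the nearest gene named; the functions were tested on simulated data. Ratios of FPKM were computed without a pseudocount, and none was formed against 0.1 FPKM. RefSeq promoters (GRCm38.p6) were matched by symbol for 26 of 39 genes, and RefSeq strands set the 5′ edges.

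Values in all groups were given for genes called in both lines, the liver gene, genes of opposite sign, and the 10 largest called changes per line reaching 1 FPKM in the higher of the compared groups; promoter and shared peaks were named with their gene. Genes of the 9 other lists were named by their 2 largest called rises and falls. Neighbours and further genes were chosen after their values were seen. The members and lists were chosen with earlier results of these data known. Some genes are not reported here.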

Additional observations from a re-analysis of the deposited data

How the results depend on the processing

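With q of at most 0.01 in place of 0.05, the called ubiquitin-system genes went from 18 to 9 in K1-ER (8 rose, 1 fell), from 29 to 17 in K1-NanER (13 rose, 4 fell) and from 1 to 0 in liver, where Fbxo10 has an unadjusted p of 0.0011 in the authors' deposited table. Where calls also needed an absolute log2 fold change of 1, 1 of the 3 falls in K1-ER was left. These settings call fewer genes by construction. The median log2 fold change was 0.70 in K1-ER and 1.03 in K1-NanER from log2 of FPKM + 1, and 0.78 and 1.09 with 0.1 added. The other 42 values, under limits on FPKM, peak height, distance, overlap and the name rule, kept their direction and stayed within 1.5 times the value reported. The count by peaks within 5 kb of a locus, and the peak settings for genes that rose in K1-ER, were chosen after seeing the data. No paired analysis was possible because the tables hold 1 value per group, and for the same reason no replicate could be left out. Depth is unknown, so low levels such as those of Fbxo2 and Fbxo16 have no stated precision.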

Other observations

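In Nan/+ livers 17 genes of the other ubiquitin and autophagy lists were in the deposited table, of which 12 rose and 5 fell, where 75.4% of all genes of the table rose and 24.6% fell. All 6 genes of the proteasome list that had a row rose. They included the 3 catalytic subunits of the immunoproteasome, the form of the proteasome found mainly in immune cells: Psmb8 from 6.70 to 19.65 FPKM, Psmb9 from 3.98 to 10.20 and Psmb10 from 22.54 to 70.56. Psme1, a subunit of the proteasome activator, rose from 81.40 to 215.34 FPKM. In the same livers the 6 granulocyte markers rose from a sum of 403 to 2384 FPKM, the macrophage marker Cd68 (1 of 6 on its list with a row) from 8.06 to 16.26, the megakaryocyte marker Pf4 (1 of 4) from 245 to 622 and the mast cell marker Mcpt8 (1 of 3) from 0.62 to 6.8. The part of these cell types in the proteasome values was not tested. Klhl30 and Cish, a suppressor of cytokine signalling, rose from 0.14 to 3.95 and from 6 to 25.84 FPKM. Anapc13, a subunit of the anaphase-promoting complex, rose from 90.95 to 220.51 FPKM, and Tfeb, a factor that drives autophagy and lysosome genes, from 4.13 to 11.89.

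Among the genes that fell in Nan/+ livers, Ubac1, an adaptor of ubiquitin ligases, went from 113.66 to 42.56 FPKM, March8, a membrane ligase, from 68.07 to 29.25 Otub2, a deubiquitinase, from 14.28 to 5.5 and Atg4a, a protease of autophagy, from 22.37 to 9.22. The binding lists also named genes of the name rule for which neither expression table has a row. KLF1 peaks named 88 genes of the rule, of which 22 have a row, and Nan-KLF1 peaks named 33, of which 9 have one. Among those without a row was Ube2o, an E2 enzyme that clears ribosomes from maturing red cells, with 2 KLF1 peaks of which 1 is at the promoter. Fbxw7, the F-box protein that degrades cyclin E, had 2 KLF1 peaks and 1 Nan-KLF1 peak.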
